A study of Homo sapiens with 7 samples.

Results

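The p53 target genes are genes that the transcription factor p53 is known to switch on directly, and 32 of them were followed here in human dermal fibroblasts that expressed progerin or elevated levels of prelamin A. They were chosen by gene symbol as known targets, with earlier results of these data known. Of these, 29 had a probe set that the annotation gives to them alone and that reached a signal of 100 on some array, among 12726 genes tested in all. BTG2 and FDXR had no listed probe set, and the BBC3 probe set was annotated to several genes, so these 3 members are named only.

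In unstressed cells p53 is kept low by MDM2, a ubiquitin ligase that marks it for degradation and is itself a p53 target. Damage to DNA and other stresses release p53 from MDM2, and p53 then binds paired copies of a short DNA motif near its targets. Those targets halt the cell cycle, repair DNA, balance redox state, place death receptors on the cell surface or act at mitochondria, and several of them feed back on p53. In fibroblasts the arm led by CDKN1A is best known for growth arrest and senescence.

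Progerin is a shortened lamin A that keeps its farnesyl lipid and underlies Hutchinson-Gilford progeria. Prelamin A is the farnesylated precursor of normal lamin A, and ZMPSTE24 is the protease that completes its maturation. There were 7 Affymetrix arrays: 1 each of cells expressing progerin, cells expressing prelamin A, progerin cells given a farnesyltransferase inhibitor (FTI), prelamin A cells given FTI, and prelamin A cells that also expressed ZMPSTE24, and 2 of control fibroblasts (controls 1 and 2). FTI was L-744832 at 10 nM for 48 h, and all RNA was from passage 10 cells grown in 3% O2 and 15% serum. The labels give 1 strain of normal fibroblasts for all arrays, and the methods name 2. The transgenes were carried by lentiviruses and driven by a CMV promoter. The labels do not say whether the controls received a virus or a vehicle, so transduction as such and the lamin proteins cannot be told apart.

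The arrays were of like overall brightness, with median signals of 64.9 to 77, and their 3′ to 5′ ratios were 1.06 to 1.62 for actin and 0.861 to 0.943 for GAPDH. The fibroblast markers were at 100 or more on every array for 11 of 11 genes. Of the markers of other cells, those of embryonic kidney cells, the usual packaging cells for lentivirus, summed to 798 to 1258 on the 5 transduced arrays, against 343 and 423 on the controls, with 5 of 7 at 100 or more on some array. INA and SALL1 took the most of it. INA was at 270.0 to 545 against 12.8 and 5.2, and SALL1 at 162 to 444 against 99.2 and 245. NEFL was at 49.4 to 264 against 29.7 and 34.4, and NEFM at 36.7 to 123 against 29.7 and 16.2. PAX2, LIN28B and SOX2 overlapped the controls. PAX2 was at 29.6 to 106 against 71.1 and 58.7, LIN28B at 2.78 to 27.7 against 32.5 and 19.4, and SOX2 at 1.13 to 55.2 against 68.1 and 44.3. For endothelial cells the sums were 363 to 503 against 192 and 270.0, of which TEK alone gave 167 to 344 against 23.5 and 2.19, while PECAM1 was at 88.0 to 133 against 156 and 92.3. For leukocytes they were 307 to 672 against 276 and 139, of which CD14 alone gave 198 to 575 against 87.2 and 55.3, while PTPRC was at or below 55.5 on every array. In both lists 2 markers reached 100 on some array, of 5 and 4 measured. The melanocyte and Schwann cell markers summed to 213 to 395 against 205 and 189, and only MITF of 4 measured reached 100. Of 6 keratinocyte markers measured DSP alone reached 100, at 5734 and 7340 with progerin and 16834, 15474 and 9916 with prelamin A, against 8332 and 5167. Their part in the results was not tested. LMNA and ZMPSTE24 did not mark the transgenes: the brightest LMNA probe set read 16289 and 15240 with progerin, 8498, 9814 and 9488 with prelamin A, and 9300 and 14029 in controls. ZMPSTE24 read 5779 on the array labelled with it, against 6120 with prelamin A alone. The files do not place these probe sets on the transcripts, so they may lie outside the transgenes, and the arrays go by their labels throughout.

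Which of the targets carry a p53 motif close to their start was read from the RefSeq promoter windows of GRCh38.p14, which run from 250 bases before to 50 bases after each start. The motif was the p53 consensus, a pair of half-sites of equal length set side by side or 1 base apart, with at most 2 mismatches over 20 bases. The core C and the core G of each half-site had to be intact. The consensus reads the same on both strands. A window held it for 4 of the 24 members with a window, beside 184 of 27305 genes (0.674%). No window was at hand for GADD45A, FBXO22, TNFRSF10A, TNFRSF10B, TNFRSF10C, TP53INP1, PHLDA3 and RRM2B, so these were not read. Among them TNFRSF10A, TNFRSF10C, TP53INP1 and RRM2B were called on the arrays (below). The 4 sites are printed to set them beside the array results of the same members, and they do not cover the members without a window. Capitals mark the motif, and a lower-case base is the spacer.
MDM2, chr12:68808923-68808942, plus strand: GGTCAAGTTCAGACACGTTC
FAS, chr10:88991309-88991328, plus strand: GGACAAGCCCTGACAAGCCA
DDB2, chr11:47214979-47214999, plus strand: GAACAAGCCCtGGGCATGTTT
AEN, chr15:88621306-88621325, plus strand: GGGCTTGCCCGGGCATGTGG
The DDB2 site had 0 mismatches and the other sites had 2 each. MDM2, whose site sits before its internal start, was the only one of these 4 called higher on the arrays (below). Its 250 bases before that start, chr12:68808767-68809016 on the plus strand with the site in capitals, are shown since MDM2 is both target and regulator: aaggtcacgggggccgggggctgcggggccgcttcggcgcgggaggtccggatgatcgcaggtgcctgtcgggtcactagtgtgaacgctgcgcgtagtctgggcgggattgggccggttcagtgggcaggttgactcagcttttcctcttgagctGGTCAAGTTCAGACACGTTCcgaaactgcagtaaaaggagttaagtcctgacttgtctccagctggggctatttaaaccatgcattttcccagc. A match here is a description of letters and not a bound site.

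Among the p53 targets, 7 were higher with progerin and 9 with prelamin A, and none was lower. The 7 called with progerin were CDKN1A, MDM2, TNFRSF10A, TNFRSF10C, SPATA18, CYFIP2 and RRM2B, and the same 7 were called with prelamin A, together with ZMAT3 and TP53INP1. Calls needed more than a 2-fold difference and an unadjusted limma p below 0.05 on log2(signal + 16), a scale that understates the change of dim genes. By that rule 7 of 29 members were higher and 0 lower with progerin, beside 3.76% and 2.04% of all genes. With prelamin A 9 of 29 were higher and 0 lower, beside 6.29% and 4.02% of all genes. Higher in both were 7 members and 2.32% of all genes. The median log2 difference of the members was 0.54 with progerin and 0.63 with prelamin A, beside 0.01 and -0.02 for all genes. By sign alone 23 of 29 members were higher in each, beside 50.7% and 48.5% of all genes. The members were chosen with earlier results of these data known, so the shares of all genes describe the set and do not test it.

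No member, and 0% of all genes, had an adjusted p under 0.05 in either comparison. The smallest among members were 0.316 with progerin and 0.193 with prelamin A (limma, Benjamini-Hochberg over all genes). Each condition other than control had 1 array, which was taken to vary like the 2 controls, and both comparisons use the same controls. The p-values therefore measure only the spread between the controls, which may be technical. In RNA from whole cultures, fewer cells of a kind and less RNA per cell cannot be told apart.

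**Figure D1:**
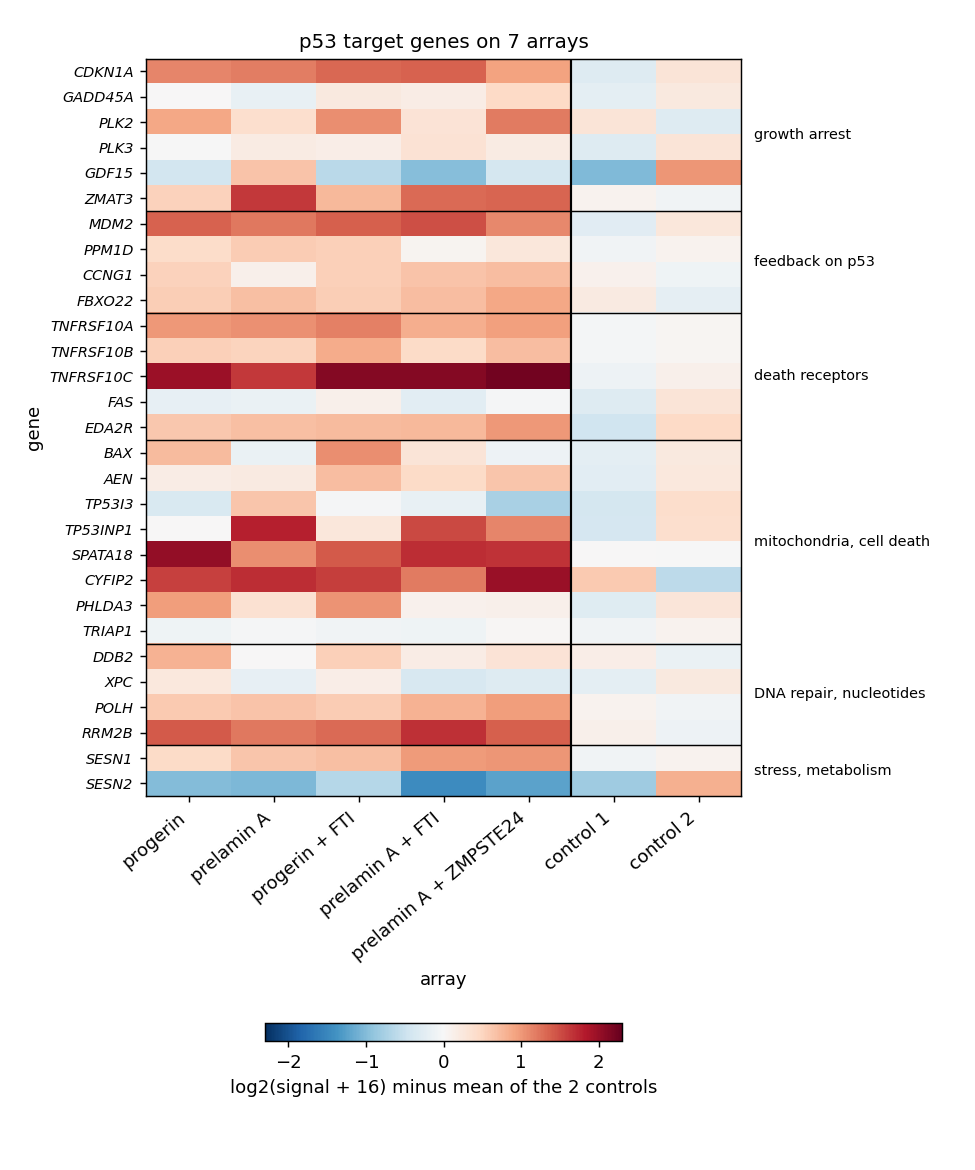
Difference of log2(signal + 16) from the mean of the 2 controls for the 29 measured p53 targets (rows, by role) on each of 7 arrays (columns). Red is higher and blue lower than the control mean; the rows of CDKN1A, MDM2, TNFRSF10C, SPATA18 and RRM2B are red on all 5 transduced arrays.

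Of the targets that halt growth, 6 were measured. CDKN1A encodes p21, the inhibitor of cyclin-dependent kinases. Its signal was 10102 with progerin, 10495 with prelamin A, 11553 with progerin and FTI, 11820 with prelamin A and FTI, and 8859 with prelamin A and ZMPSTE24, against 3789 and 5658 in controls. All 5 transduced arrays lay above both controls. The log2 difference was 1.12 ± 0.40 (SE, adjusted p = 0.7) with progerin and 1.18 ± 0.40 (adjusted p = 0.371) with prelamin A by limma. ZMAT3, an RNA-binding zinc finger protein, read 4090 with progerin, 8807 with prelamin A, 4768 with progerin and FTI, 7075 with prelamin A and FTI, and 7196 with prelamin A and ZMPSTE24, against 3018 and 2682 in controls. The 3 arrays with prelamin A were the highest, and the 2 with progerin lay between them and the controls. Its log2 difference was 0.52 with progerin, which was not called, and 1.62 ± 0.33 (limma, adjusted p = 0.193) with prelamin A.

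The other members of the growth arrest group were not called in either line. PLK2, a polo-like kinase induced by stress, had log2 differences of 0.88 with progerin and 0.38 with prelamin A. GADD45A, a stress sensor that binds cell cycle and repair proteins, was at 0.01 and -0.17, and PLK3, a further polo-like kinase, at -0.01 and 0.20. GDF15, a secreted cytokine of the TGF-beta family, read 223 with progerin and 486 with prelamin A, against 143 and 626 in controls. For GDF15 the controls enclosed all 5 transduced arrays.

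Among the genes that feed back on p53, MDM2 was the one called. It read 1601 with progerin, 1450 with prelamin A, 1623 with progerin and FTI, 1769 with prelamin A and FTI, and 1349 with prelamin A and ZMPSTE24, against 514 and 744 in controls. The lowest transduced array was well above the higher control. The log2 difference of MDM2 was 1.35 ± 0.38 (SE, adjusted p = 0.585) with progerin and 1.21 ± 0.38 (adjusted p = 0.345) with prelamin A in limma. CCNG1, cyclin G1, FBXO22, a subunit of a ubiquitin ligase that acts on p53, and PPM1D, the phosphatase that turns off p53 and its kinases, were not called. Their log2 differences ran over 0.41 to 0.56 with progerin and 0.11 to 0.69 with prelamin A.

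Of the death receptors, TNFRSF10C and TNFRSF10A were called in both lines. TNFRSF10C, a decoy TRAIL receptor without a death domain, read 272 with progerin, 210 with prelamin A, 299.6 with progerin and FTI, 302 with prelamin A and FTI, and 324 with prelamin A and ZMPSTE24, against 51.6 and 63.5 in controls. Every transduced array was more than 3-fold above either control. It is a dim gene, below 100 on both controls, so it entered the test through the transduced arrays alone. Its log2 difference was 1.97 ± 0.33 (SE, limma adjusted p = 0.335) with progerin and 1.62 ± 0.33 (adjusted p = 0.201) with prelamin A.

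TNFRSF10A, a TRAIL receptor that does signal death, read 273 with progerin, 283 with prelamin A, 307 with progerin and FTI, 241 with prelamin A and FTI, and 263 with prelamin A and ZMPSTE24, against 124 and 133 in controls. The groups did not overlap, and the folds were just past the threshold, at 2.00 with progerin and 2.07 with prelamin A. The median over its probe sets gave a log2 difference of 0.94 with progerin and 0.04 with prelamin A, and neither was then called. TNFRSF10B, the other death-signalling TRAIL receptor, had log2 differences of 0.54 and 0.51 and was not called. The probe set tested was also above both controls on all 5 transduced arrays. Its other probe sets gave 0.83 and 0.56, 0.43 and 0.05, and -1.09 and -0.65. The last of these was below both controls on all 5 transduced arrays, at 25.8 to 129 against 222 and 171. EDA2R, the receptor of ectodysplasin A2, was at 0.63 and 0.70, and FAS, the receptor of FAS ligand, at -0.18 and -0.15, neither of them called. The signals of FAS on the 5 transduced arrays ran over 3472 to 4420, within the span of the controls, 3344 and 5007.

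Of the members that act at mitochondria or in cell death, SPATA18 and CYFIP2 were called in both lines and TP53INP1 with prelamin A. SPATA18, also known as Mieap, serves the quality control of mitochondria. It read 2854 with progerin, 1477 with prelamin A, 1874 with progerin and FTI, 2279 with prelamin A and FTI, and 2219 with prelamin A and ZMPSTE24, against 697 and 690.3 in controls. The controls were nearly equal and every transduced array was at least 2-fold above them. Its log2 difference was 2.02 ± 0.32 (SE, limma adjusted p = 0.316) with progerin and 1.07 ± 0.32 (adjusted p = 0.322) with prelamin A. A second, dimmer probe set of SPATA18 had controls further apart, at 76.5 and 208, against 243 to 619 on the transduced arrays. There the log2 difference was 2.02 with progerin and 0.85, under 2-fold, with prelamin A.

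CYFIP2, a protein of the actin-regulating WAVE complex, was dim, at 92.0 with progerin, 102 with prelamin A, 93.1 with progerin and FTI, 66.5 with prelamin A and FTI, and 128 with prelamin A and ZMPSTE24, against 38.8 and 7.93 in controls. The groups did not overlap, but its controls were over 2-fold apart. Its log2 difference was 1.58 ± 0.58 (SE, limma adjusted p = 0.724) with progerin and 1.71 ± 0.58 (adjusted p = 0.376) with prelamin A. CYFIP2 and TNFRSF10C are the 2 called members below 100 on both controls, and without such members 5 were called with progerin and 7 with prelamin A.

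TP53INP1, a stress-induced nuclear protein that also takes part in autophagy, read 1237 with progerin, 4303 with prelamin A, 1476 with progerin and FTI, 3553 with prelamin A and FTI, and 2711 with prelamin A and ZMPSTE24, against 931 and 1620 in controls. The 3 arrays with prelamin A stood above both controls, and the 2 with progerin lay between the controls. Its log2 difference was 0.01 with progerin and 1.79 ± 0.45 (SE, limma adjusted p = 0.264) with prelamin A.

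Not called in this group were BAX, the pore-forming protein of the outer mitochondrial membrane (log2 differences of 0.73 with progerin and -0.15 with prelamin A), and PHLDA3, a repressor of Akt (0.97 and 0.34). TP53I3, a quinone oxidoreductase, was at -0.35 with progerin and 0.63 with prelamin A. AEN, a nuclease of apoptotic cells, and TRIAP1, which carries lipid in mitochondria, lay within -0.10 to 0.20 in both.

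**Figure D2:**
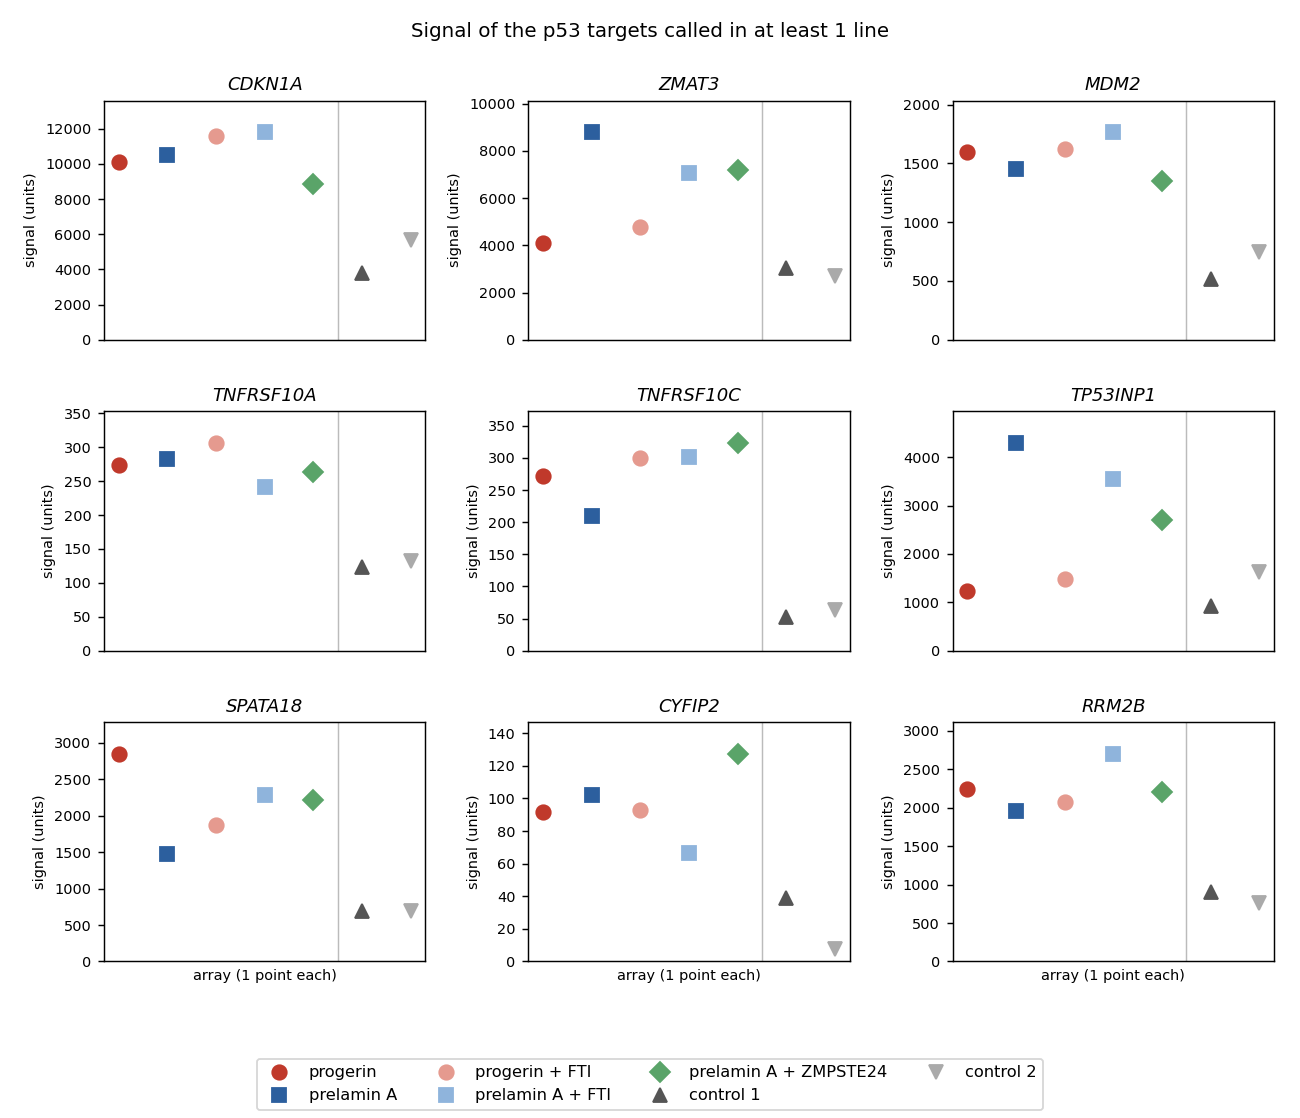
Signal (units, each panel from 0) of the 9 p53 targets called in at least 1 line, 1 point per array, with the transduced arrays left of the grey line and the 2 controls right of it. In 8 panels every transduced point is above both controls; in the TP53INP1 panel the 2 progerin points lie between the controls.

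Of the repair genes, RRM2B was called in both lines. It encodes the p53-induced small subunit of ribonucleotide reductase, which supplies nucleotides for DNA repair. RRM2B read 2242 with progerin, 1963 with prelamin A, 2069.9 with progerin and FTI, 2704 with prelamin A and FTI, and 2198 with prelamin A and ZMPSTE24, against 909 and 766 in controls. All 5 transduced arrays were more than 2-fold above either control. The log2 difference was 1.41 ± 0.33 (SE, limma adjusted p = 0.485) with progerin and 1.22 ± 0.33 (adjusted p = 0.289) with prelamin A. The damage-recognition proteins of nucleotide excision repair, DDB2 and XPC, had log2 differences of 0.80 and 0.24 with progerin and of 0.01 and -0.19 with prelamin A. POLH, the polymerase that copies past ultraviolet damage, was at 0.61 with progerin and 0.65 with prelamin A and above both controls on all 5 transduced arrays. None of these 3 was called.

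The sestrins, which restrain mTORC1 and limit oxidative stress, differed in sign. SESN1 had log2 differences of 0.43 with progerin and 0.64 with prelamin A, and SESN2 of -0.99 and -1.03, and neither was called. SESN2 read 764 with progerin and 743 with prelamin A, against 862 and 2726 in controls, so its low value rests on control 2.

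Over 2-fold apart in the controls were 3 members, CYFIP2, GDF15 and SESN2, against 9.28% of all genes. Above both controls on all 5 transduced arrays were 15 of 29 members, beside 11.9% of all genes, and below both controls 0, beside 12.3%. The 15 were CDKN1A, PLK2, ZMAT3, MDM2, CCNG1, FBXO22, TNFRSF10A, TNFRSF10B, TNFRSF10C, EDA2R, SPATA18, CYFIP2, POLH, RRM2B and SESN1. Of these, TNFRSF10C and CYFIP2 were below 100 on both controls and passed the filter only through transduced arrays. Such genes could not have counted as below both controls. Against control 1 alone 24 members were above on all 5 arrays, and against control 2 alone 16 were above and 4 below. The shares of all genes against a single control were not computed, so no conclusion is drawn from these counts. The median log2 difference of the members from a single control ran over 0.39 to 0.76 across the 5 arrays and 2 controls. Control 1 minus control 2 gave a median of -0.23 over the members and 0.02 over all genes.

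**Figure D3:**
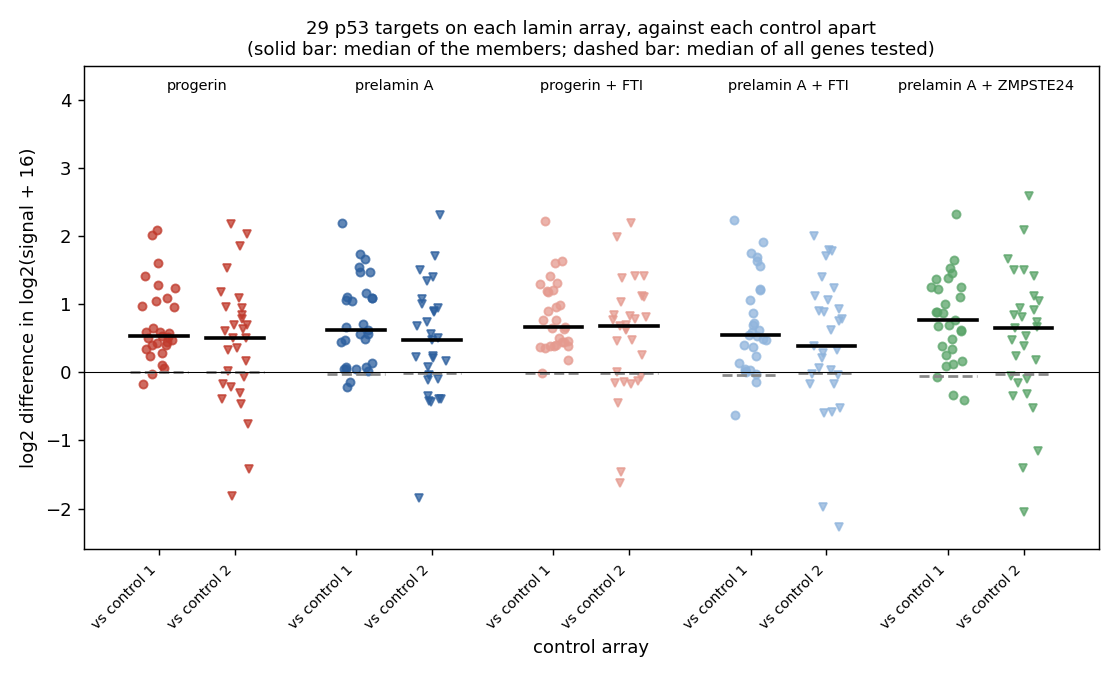
Log2 difference of each of 29 p53 targets (points) on each transduced array from control 1 (circles) and control 2 (triangles) taken apart. Solid bars are member medians, 0.39 to 0.76, and dashed bars are the medians of all genes tested, which lie near 0.

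The lines were then set against each other. With prelamin A over progerin 2 members were higher, beside 3.59% of all genes, and 0 were lower, beside 3.46%. These were TP53INP1, with a log2 difference of 1.79 ± 0.52 (SE, limma adjusted p = 0.651), and ZMAT3, with 1.10 ± 0.38 (adjusted p = 0.671). The difference in ZMAT3 turned on the probe set. Its 4 other probe sets gave log2 differences from control of 0.74 to 1.86 with prelamin A and 1.00 to 1.41 with progerin, and the median over all 5 left ZMAT3 uncalled. The lowest values were those of SPATA18, which read 1477 with prelamin A and 2854 with progerin (log2 difference of -0.94 ± 0.37), and BAX, which read 1232 and 2290 (-0.89 ± 0.43), and neither was called.

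**Figure D4:**
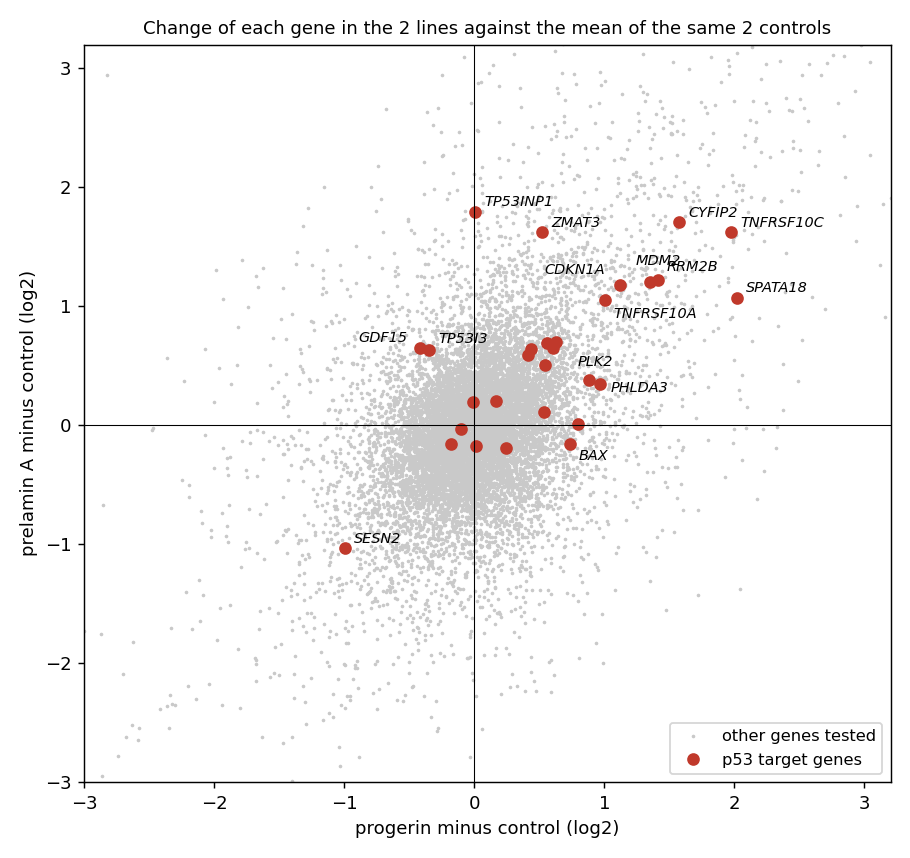
Log2 difference from the mean of the same 2 controls with progerin (horizontal) and with prelamin A (vertical) for the p53 targets (red) and the other genes tested (grey), with 90 of 12726 genes beyond the axes. The 7 members called in both lines lie at upper right, TP53INP1 and ZMAT3 lie higher on the vertical axis than on the horizontal, and both axes use the same controls.

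No member was called with FTI or ZMPSTE24 relative to the untreated line. Each of these comparisons set 1 array against 1 array. So few of all genes were called that a count of 0 does not set the members apart from them. The counts called were 0 of 29 for progerin and FTI over progerin, for prelamin A and FTI over prelamin A, and for prelamin A and ZMPSTE24 over prelamin A, at a background in either direction of 1.45%, 2.81% and 5.04%. Without the fold threshold the counts were also 0 in all 3, beside 1.45%, 2.84% and 5.10% of all genes. The member medians were 0.13, 0.02 and 0.12, beside -0.01, -0.01 and -0.02 for all genes. The lowest values were those of GDF15 and TP53I3 in prelamin A cells. TP53I3 read 1297 with FTI and 864 with ZMPSTE24, against 2266 with prelamin A alone, log2 differences of -0.80 ± 0.54 and -1.37 ± 0.54. With ZMPSTE24 the TP53I3 value was called under 4 other settings. GDF15 read 147 with FTI and 226 with ZMPSTE24, against 486 with prelamin A alone, all within the range of its controls. The log2 differences of GDF15 were -1.63 ± 1.02 and -1.06 ± 1.02, over 2-fold but not called. At the upper end with ZMPSTE24 stood PLK2, GADD45A and CCNG1, with log2 differences of 0.81, 0.64 and 0.61. With FTI the highest were SPATA18 in prelamin A cells, at 0.62 ± 0.37, and AEN in progerin cells, at 0.55. SPATA18 was also the lowest with FTI in progerin cells, at -0.60 ± 0.37. The effect of FTI in prelamin A cells minus its effect in progerin cells was called for 0 members, beside 1.84% of all genes.

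Set against the controls, the treated cells had a like number of members called. With progerin and FTI 9 were higher (3.13% of all genes), with prelamin A and FTI 7 (5.32%) and with prelamin A and ZMPSTE24 8 (4.78%), and 0 were lower in each (2.57%, 4.37% and 3.60%). MDM2, TNFRSF10C, SPATA18 and RRM2B were called in all 3. BAX, at 2905 with progerin and FTI, was called there alone, and SESN1, at 1106 with prelamin A and ZMPSTE24, was called there alone. PLK2 was called with progerin and FTI, at 2706, and with prelamin A and ZMPSTE24, at 2930, against 1577 and 1030 in controls. Whether these differ from the remaining conditions was tested only in the comparisons above, in which none was called.

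A second model, which takes the arrays as 3 states (2 lamin arrays, 3 treated arrays and 2 controls), has a spread measured in every state. With the lamin arrays over control, TNFRSF10C was the 1 member with an adjusted p under 0.05, at a log2 difference of 1.80 ± 0.20 (SE, limma adjusted p = 0.0266), beside 0.464% of all genes. TNFRSF10C is the member noted above as below 100 on both controls, which entered the test only through the arrays where it was high, so the call is no support for the members as a set. The call was lost when any 1 of the 7 arrays was left out, with adjusted p values of 0.0608 to 0.125. Next among members came RRM2B, at 1.31 ± 0.22 (limma adjusted p = 0.0696), TNFRSF10A (adjusted p = 0.101) and MDM2 (adjusted p = 0.112). Between the treated and the untreated lamin arrays, 0 members had an adjusted p under 0.05, beside 0% of all genes. This model pools the lines, so differences between them count as spread, and the SE was 0.61 for TP53INP1. With the line as a block, an FTI effect common to both lines and a ZMPSTE24 effect, a fit added after seeing the data, 0 of 29 members were called for either. The block model called 0.778% of all genes for FTI and 4.5% for ZMPSTE24. At an unadjusted p under 0.05 it had 0 members for either effect, beside 2.78% and 7.23% of all genes.

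Many members had several probe sets on the array, 75 in all, of which 35 beside those used reached 100. For members called with progerin, 11 of 12 such other probe sets had the same direction, 6 of them over 2-fold. For those called with prelamin A it was 16 of 16, with 9 over 2-fold. The exception was a dim MDM2 probe set, at a log2 difference of -0.10 with progerin. Many of these other probe sets were below 100 on both controls and reached 100 only on transduced arrays, so the filter favoured a higher value there. They belong to 4 members with progerin and 5 with prelamin A, MDM2 having the most. A second CYFIP2 probe set, below 100 on every array, gave -0.04 with progerin and -0.39 with prelamin A. The shared direction is therefore no separate support for the calls.

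The other genes of the pathway came from lists drawn up with the members. Of 35 further p53 targets tested, 2 were higher and 0 lower with progerin (DRAM1 and KLF4), and 5 were higher and 2 lower with prelamin A. Over all genes the shares were 3.76% and 2.04% with progerin and 6.29% and 4.02% with prelamin A. TIGAR, which lowers glycolytic flux, read 3175 with prelamin A, against 1239 and 1107 in controls, a log2 difference of 1.43 ± 0.33. TNFRSF10D, a second TRAIL decoy receptor, read 3020 (2283 with progerin), against 1360 and 1296 in controls. PMAIP1, which encodes the pro-death protein NOXA, was lower with prelamin A, at 171, against 1065 and 673 in controls, a log2 difference of -2.20 ± 0.42. CASP1, the inflammatory caspase, was lower too, at 184, against 596 and 605. The medians of these 35 targets were 0.36 with progerin and 0.17 with prelamin A.

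With ZMPSTE24 over prelamin A alone, 4 of the 35 were called higher, namely PMAIP1, CASP1, DRAM1 and KLF4, beside 2.18% of all genes. PMAIP1 read 582 and CASP1 676 in these cells, against 171 and 184 with prelamin A alone. DRAM1, a lysosomal protein of autophagy, read 5911, against 1995 with prelamin A alone, and KLF4, a growth-restraining transcription factor, read 7449, against 2156. None of the 4 had an adjusted p under 0.05, the smallest being 0.653 in limma.

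Among 21 regulators of p53 none was called with progerin and 1 with prelamin A, PPP1R13L, an inhibitor of p53, which was lower at 356, against 739 and 811 in controls, beside 4.02% of all genes lower. MDM4, the partner of MDM2 that restrains p53, read 1091 with progerin and 1118 with prelamin A, against 2006 and 1257 in controls. Its log2 differences of -0.54 and -0.50 were not called. Of 15 cell cycle genes that p53 holds down through p21 and the DREAM repressor complex, 0 were called with progerin, at a median log2 difference of 0.30. With prelamin A, 1 was called lower, MYBL2, a transcription factor of dividing cells, at 107, against 255 and 263 in controls, again beside 4.02% of all genes, and the median was -0.58. With prelamin A over progerin, 3 of the 15 were lower, MYBL2, MCM5 and CHAF1A, beside 3.46% of all genes, and the median was -0.84.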

How the data were processed

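Total RNA of each culture was hybridised to an Affymetrix U133 Plus 2.0 array. The authors deposited linear intensity values, 1 MAS5 signal per probe set and array, which they had background-corrected and scaled (MAS5 version not given in the sources used here). Detection calls were not used here. The number of arrays limits the precision.

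The platform annotation gave 1 gene to 41091 of 54675 probe sets. Of a gene's probe sets that reached 100 on any array, the one brightest on average was tested. Values were tested as log2(signal + 16) with lmFit and eBayes (limma 3.58.1, R 4.3.3). A model of 6 conditions left 1 residual degree of freedom beside 3.50 prior ones. A model of 3 states left 4, beside 2.60 prior ones. P-values were adjusted over all genes by Benjamini-Hochberg. Scripts were tested on simulated data.

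The members and lists were chosen with earlier results of these data known. Members called against control or between lines were to be named with all values, and from each further list up to 6 called genes by size of change. Alternatives were other normalizations, pseudocounts, filters, probe set summaries, priors and thresholds, and leaving out each array. The sources disagree on the cells: the labels give 1 strain and the methods 2. For prelamin A with FTI, the title omits prelamin A, which the other labels of that array name.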

Additional observations from a re-analysis of the deposited data

Results flagged for a closer look

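Between the lines, 2 members differed by more than 2-fold at an unadjusted p under 0.05, and neither passed the adjustment over all genes. TP53INP1 was 1.79 ± 0.52 (SE) higher on the log2 scale with prelamin A than with progerin (limma, adjusted p = 0.651). ZMAT3 was 1.1 ± 0.38 (SE) higher on the log2 scale with prelamin A than with progerin (limma, adjusted p = 0.671). The ZMAT3 difference turned on the probe set, and the median over its probe sets left it uncalled. Each line had 1 array here.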

How the results depend on the processing

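The direction of every called member was kept under all 212 alternatives computed for single genes, of which 168 kept the call and 44 did not. CYFIP2 lost it most often, followed by TNFRSF10C in the 3-state model and TNFRSF10A. Of 273 alternatives for counts and medians, 23 moved, meaning a count by over 1.5 times or a median by over 0.125. Within that tolerance the members called higher fell to 5 with progerin, against 7 as reported, with no filter on low values, with a pseudocount of 1 or of 64, with median centring, with quantile normalization, and without members below 100 on both controls. It was 6 to 8 with a mean signal of at least 100, the median over probe sets and an intensity trend. With prelamin A the count was 7 to 9 under the same settings. With an unadjusted p under 0.01, 2 members were higher with progerin, 2 with prelamin A, and 0 with prelamin A over progerin. That last count was 1 (TP53INP1) without the filter on low values and 1 with the median over probe sets. With ZMPSTE24 over prelamin A alone, 1 member, TP53I3, was called lower with a pseudocount of 64, with a mean signal of at least 100, with the median over probe sets and with an intensity trend. The FTI effect in prelamin A minus that in progerin was called higher for 1 member, SPATA18, with an intensity trend. In the 3-state model, the count at an adjusted p under 0.05 was 0 without the filter, 0 with the median over probe sets and 2 with an intensity trend (TNFRSF10C and RRM2B). It was 0 in each of the 7 fits that left out 1 array. Without control 1 and without control 2, the median with prelamin A was 0.47 and 0.62. Against single controls, a choice made after seeing the data, 16 to 24 members were above on all 5 transduced arrays and 0 to 4 below. No share over all genes was computed beside these. With 1 control left, the 6-condition model has no residual degrees of freedom, so those fits gave values with no test. Why these settings moved the counts was not tested. Treated and untreated arrays are paired only by their line, which the fits with the line as a block take up. In the 3-state model the line as a block kept the counts at 1 and 0 (TNFRSF10C adjusted p = 0.0308, limma).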
